A study of Mus musculus with 16 samples.

Results

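The 10 genes of the class I antigen presentation pathway described here were followed through all 8 groups of an array study of 4TO7 cells, a mouse mammary carcinoma line. The genes were Psmb8, Psmb9, Psmb10, Psme1, Tap1, Tap2, Tapbp, B2m, H2-K1 and H2-D1, chosen by name. They had 17 probes on the array, and 16 of these were kept among the 18993 genes measured above background. The probe left out was a second H2-D1 probe (A_52_P246277), which was well above background on 1 of 16 arrays. The study asked how overexpressed miR-200 microRNAs, or the adhesion protein E-cadherin, change gene expression in these cells.

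Each of the 8 groups had 2 arrays, repeats A and B. Cluster 1 cells stably overexpressed the microRNAs of cluster 1 and were set against cells with the empty pMSCV puro vector. Cluster 2 cells overexpressed the cluster 2 microRNAs and were set against cells with the empty pMSCV hygro vector. Clusters 1+2 cells overexpressed both and were set against cells with both empty vectors. CDH1 cells stably overexpressed E-cadherin and were set against cells with the pMSCV puro vector, a separate control from the one for Cluster 1. All groups, controls included, were 4TO7 cells grown in 10% serum and infected with retroviral vectors. The sources used here do not say which miR-200 members make up each cluster. The series calls the repeats biological replicates, but the sources do not say whether they were separate infections. The p-values therefore reflect how much these repeats varied, which may be technical. On each array 175 ng of sample RNA in 1 dye was hybridised against a commercial mouse reference RNA, a mix from 11 cell lines, in the other dye. Values are log2 ratios of sample over reference, so 0 means the same signal as in the reference RNA.

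Class I molecules carry peptides from inside the cell to its surface, where cytotoxic T cells read them. The peptides are cut by the proteasome, pumped into the endoplasmic reticulum by the transporter TAP, and loaded onto a heavy chain paired with beta-2 microglobulin. Interferons raise the transcription of most genes of this pathway, and the subunits that they induce replace the standard catalytic subunits to form the immunoproteasome. Tumour cells often express the pathway at low levels.

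Of the 10 genes, 7 lie on mouse chromosome 17, in the major histocompatibility complex, where Psmb9, Tap1, Psmb8 and Tap2 follow each other. The largest changes below were read by 3 probes, which lie in coding sequence and are printed to show what was measured. The pair for Psmb8 adjoin each other, and the capitals mark the 3 bases they share. Positions are those of the array files, in build mm7, at chr17:32280668-32280727 for A_51_P345367, chr17:32280725-32281049 for A_51_P345366, which spans an intron, and chr17:32262147-32262206 for A_51_P369803.
Psmb8 A_51_P345367: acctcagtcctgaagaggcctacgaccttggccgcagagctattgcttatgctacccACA
Psmb8 A_51_P345366: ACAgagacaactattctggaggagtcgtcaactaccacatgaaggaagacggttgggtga
Psmb9 A_51_P369803: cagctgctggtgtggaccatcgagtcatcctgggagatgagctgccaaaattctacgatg

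Promoter sequence from RefSeq (build GRCm38.p6) was found for 9 of the 10 genes. The 250 bases before the start site are printed for 5 of them, because several of these genes moved together below. The search covered 3 motifs on both strands, in windows that run to 50 bases after the start site. The core of an interferon response element was taken as TTTC, any 2 bases and TTTC again. TTCNNNGAA is a gamma-activated site, bound by STAT factors. The kappaB site, bound by NF-kappaB, was taken as GGGA, any base, T, any 2 bases and CC. Capitals mark the matches. The windows lie at chr2:122147437-122147686 (B2m, + strand), chr17:34197945-34198194 (Psmb8, + strand), chr17:34187306-34187555 (Tap1, + strand), chr17:34000348-34000597 (H2-K1, - strand) and chr17:35262844-35263093 (H2-D1, + strand).
B2m: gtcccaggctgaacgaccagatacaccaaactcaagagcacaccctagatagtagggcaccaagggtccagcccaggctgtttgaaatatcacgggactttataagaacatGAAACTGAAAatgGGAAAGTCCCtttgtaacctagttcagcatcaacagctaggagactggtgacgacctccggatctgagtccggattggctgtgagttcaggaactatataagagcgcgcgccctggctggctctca
Psmb8: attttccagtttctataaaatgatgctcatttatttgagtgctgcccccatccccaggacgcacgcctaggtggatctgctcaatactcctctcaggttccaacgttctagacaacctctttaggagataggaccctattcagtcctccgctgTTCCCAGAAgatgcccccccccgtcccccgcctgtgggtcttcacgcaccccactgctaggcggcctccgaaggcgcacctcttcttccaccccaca
Tap1: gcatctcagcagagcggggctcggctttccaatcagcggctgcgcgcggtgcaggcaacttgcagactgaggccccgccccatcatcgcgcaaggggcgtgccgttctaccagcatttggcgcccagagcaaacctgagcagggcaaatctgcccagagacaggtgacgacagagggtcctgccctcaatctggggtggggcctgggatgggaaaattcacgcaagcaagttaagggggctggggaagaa
H2-K1: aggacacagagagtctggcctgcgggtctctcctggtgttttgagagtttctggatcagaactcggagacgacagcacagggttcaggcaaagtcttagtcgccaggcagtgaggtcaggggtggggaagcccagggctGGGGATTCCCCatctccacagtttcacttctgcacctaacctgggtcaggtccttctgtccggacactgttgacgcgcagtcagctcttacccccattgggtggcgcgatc
H2-D1: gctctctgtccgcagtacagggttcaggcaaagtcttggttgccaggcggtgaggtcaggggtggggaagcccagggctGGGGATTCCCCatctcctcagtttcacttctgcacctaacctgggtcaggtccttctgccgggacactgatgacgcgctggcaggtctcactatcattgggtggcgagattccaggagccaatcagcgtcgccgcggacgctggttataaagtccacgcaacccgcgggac

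The H2-K1 and H2-D1 windows share a run of 47 bases that holds the kappaB match, where 2 matches on opposite strands overlap. B2m held both an interferon response element match, starting at position -139 from its start site, and a kappaB match at -126. The Psmb8 window held a gamma-activated site match at -97, and the pattern searched matches there on both strands. Psme1 held TTTCGCTTTC, an interferon response element match, at position 10 after its start site. Psmb9 and Tap1 are transcribed away from each other from windows that share 275 bases, and neither window held any of the 3 motifs. Among all 32851 promoters the interferon response element letters were in 3.44%, the gamma-activated site in 8.3% and the kappaB letters in 4.16%. Of the 9 genes, 2 held the interferon response element letters, 1 the gamma-activated site and 3 the kappaB letters. Matches to different motifs did not overlap each other. A match describes the letters in a window and is no evidence of binding.

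The sample carried Cy3 in Cluster 2, Clusters 1+2 and their controls and Cy5 in Cluster 1, CDH1 and their controls. Slide identifiers in the file headers showed that the Cy3 groups had their A repeats on slide 1 and their B repeats on slide 2. CDH1 and its control were on slide 3, Cluster 1 and its control on slide 4. Ratios are therefore compared within a dye only. Between 12560 and 28417 probes per array were well above background. Repeat B of the CDH1 control stood apart with the lowest number, and its group had the lowest correlation between repeats across genes, at 0.937. Cdh1, the gene behind E-cadherin, rose by 1.21 in Cluster 1, 1.93 in Cluster 2, 2.86 in Clusters 1+2 and 0.61 in CDH1 cells. Differences below are log2 fold changes from limma with a standard error (SE), and a gene is called where its Benjamini-Hochberg adjusted p over all genes is under 0.05.

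**Figure D1:**
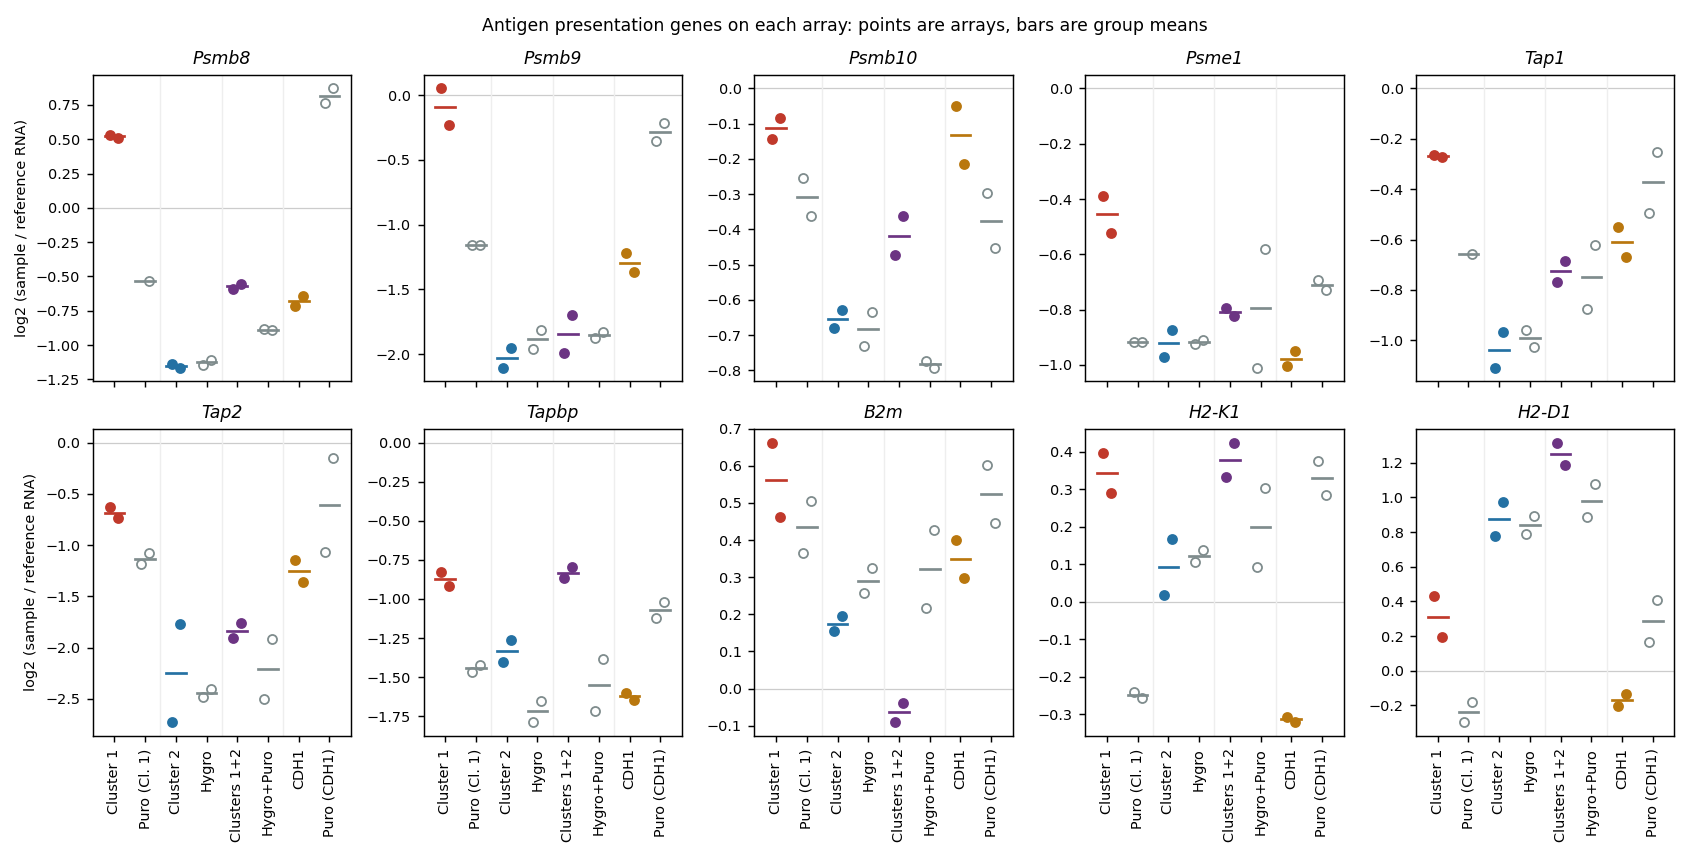
Log2 ratio of sample over reference RNA (vertical axes, each gene on its own scale) for the 10 genes in all 8 groups. Points are single arrays, filled for overexpressing cells and open for vector controls, and bars are group means. In Psmb8, Psmb9, H2-K1 and H2-D1 the Cluster 1 arrays and the arrays of the Puro control for CDH1 lie above those of the Puro control for Cluster 1 and of CDH1.

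Cluster 1 cells were compared with their Puro control first. Of the 10 genes, 6 rose and none fell, where 4.84% of all genes were called higher and 3.40% lower. The median difference of the 10 genes was 0.51, against 0.005 over all genes. The largest rises were those of the immunoproteasome subunits Psmb8 and Psmb9, ahead of the class I heavy chains. With the software-marked spots kept, only the Psmb8 call remained. In these bulk RNA samples, more expressing cells and more RNA per cell cannot be told apart.

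Psmb8, the inducible chymotrypsin-like subunit of the immunoproteasome, had log2 ratios of 0.53 and 0.51 in Cluster 1 cells, against -0.53 on the 1 control array with a usable spot. Its second probe read 0.31 and 0.30 in Cluster 1 cells, against -0.70 and -0.68 in the Puro control. Both Cluster 1 arrays lay above both control arrays on that probe, as was so for 26.9% of all genes on the probe that stood for them. The difference was 1.05 (SE 0.0798, adjusted p = 1.42e-05), or 2.08-fold, and 0.99 by the second probe (adjusted p = 1.75e-06 over all probes, of which 3.65% were called higher).

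Psmb9, the inducible subunit that replaces the caspase-like subunit, had log2 ratios of 0.05 and -0.23 in Cluster 1 cells, against -1.16 and -1.16 in the Puro control. The groups did not overlap, as was so upward for 26.9% of all genes. Psmb9 rose by 1.07 (SE 0.116, adjusted p = 0.000115), 2.10-fold. Psme1, the alpha subunit of the PA28 activator that opens the proteasome, had -0.39 and -0.52 in Cluster 1 cells, against -0.92 and -0.92 in the control. It rose by 0.46 (SE 0.109, adjusted p = 0.0197), a call that ended without Cluster 1 repeat A (0.40) or either control array (0.46 and 0.46). Psmb10, the inducible trypsin-like subunit, was not called, with a difference of 0.19 (adjusted p = 0.209).

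H2-K1, a classical class I heavy chain, had log2 ratios of 0.40 and 0.29 in Cluster 1 cells, against -0.24 and -0.26 in the Puro control. All its 3 probes were called higher, at 0.59, 0.56 and 0.49, the first averaged over 10 spots (SE 0.0833 and adjusted p = 0.000839 for the gene). H2-D1, the other classical heavy chain, had 0.43 and 0.19 in Cluster 1 cells, against -0.29 and -0.18 in the control. It rose by 0.55 (SE 0.112, adjusted p = 0.00895). Without Cluster 1 repeat A (0.43) or control repeat A (0.495) that call ended. Class I genes are close in sequence, and the H2-D1 probe is listed in the array files under 3 RefSeq accessions, so its signal may come from more than 1 of them.

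Tapbp, which encodes tapasin, the protein that holds empty class I molecules at the transporter, had -0.83 and -0.92 in Cluster 1 cells, against -1.47 and -1.42 in the Puro control. Tapbp rose by 0.57 (adjusted p = 0.00363), while its second probe gave 0.33 and was not called (adjusted p = 0.0716). The transporter subunits Tap1 and Tap2 were not called, at 0.39 (adjusted p = 0.0959) and 0.45 (adjusted p = 0.495). The Tap1 difference rests on 1 control array, and Tap2 had the widest error of the 10 genes (SE 0.302). B2m, the common light chain, was not called (0.13, adjusted p = 0.561), and its other 2 probes gave -0.09 and -0.42.

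**Figure D2:**
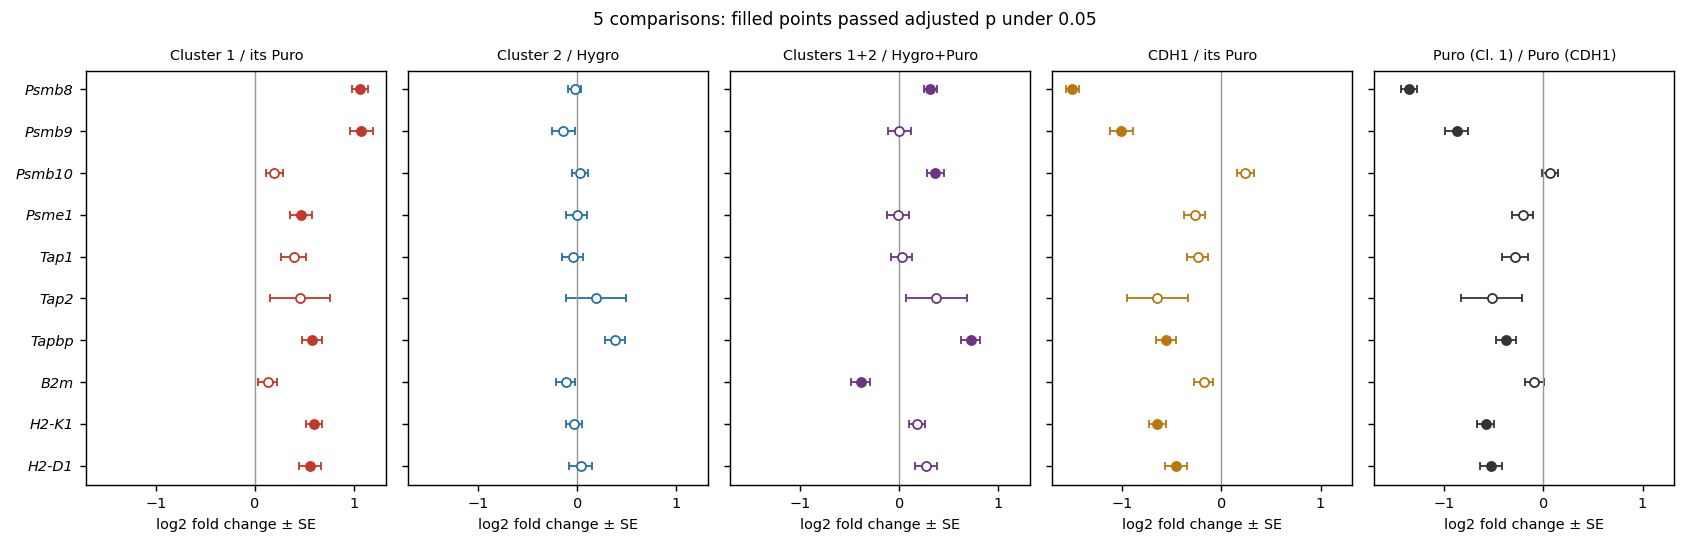
Log2 fold change with its SE (horizontal axes) for the 10 genes in 5 comparisons, filled where the adjusted p was under 0.05. The 6 filled points of Cluster 1 lie right of 0, the 5 of CDH1 and the 5 between the Puro controls left of 0, and Cluster 2 has none.

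CDH1 cells showed the opposite pattern against their own Puro control. Of the 10 genes, 5 fell and none rose, where 6.78% of all genes were called lower and 7.67% higher. The median difference of the 10 genes was -0.50, against 0.006 over all genes. The genes called were Psmb8, Psmb9, H2-K1, Tapbp and H2-D1.

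Psmb8 had log2 ratios of -0.72 and -0.64 in CDH1 cells, against 0.77 and 0.87 in the Puro control. The groups lay apart, as was so downward for 26.2% of all genes. Psmb8 fell by 1.497 (SE 0.0652, adjusted p = 1.08e-07), to 0.354 of the control level, and its second probe fell by 1.35 (adjusted p = 6.79e-08, where 5.47% of probes were called lower). Psmb9 had -1.22 and -1.37 in CDH1 cells, against -0.36 and -0.22 in the control, and fell by 1.01 (SE 0.116, adjusted p = 9.47e-05).

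H2-K1 had log2 ratios of -0.31 and -0.32 in CDH1 cells, against 0.37 and 0.28 in the Puro control, a difference of -0.64 (adjusted p = 0.00024). Of its 3 probes, 2 were called lower. With the sample channel alone the H2-K1 difference was -0.17 and not called (adjusted p = 0.433). Tapbp had -1.60 and -1.65 in CDH1 cells, against -1.12 and -1.02 in the control, a difference of -0.55 (adjusted p = 0.0025). Its second probe was not called (-0.31, adjusted p = 0.0613), and scaled spread ended the gene's call (adjusted p = 0.0616). H2-D1 had -0.20 and -0.14 in CDH1 cells, against 0.17 and 0.41 in the control, a difference of -0.46 (adjusted p = 0.0153). The H2-D1 call ended without control repeat B (-0.34) or either CDH1 array (-0.42 and -0.49), and under median centring (-0.24) and with the sample channel alone (-0.35).

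Of the 5 genes not called in CDH1 cells, Tap2 (-0.64), Psme1 (-0.27), Tap1 (-0.24) and B2m (-0.18) had lower means and Psmb10 (0.24, adjusted p = 0.0699) a higher one. Under median centring, which called more of all genes higher, Psmb10 was called higher (0.50, adjusted p = 0.00426). With arrays of the same dye Psme1 was called lower (-0.27, adjusted p = 0.0444). Tap2 ranged most among repeats, with -1.15 and -1.36 in CDH1 cells, against -1.07 and -0.15 in the control. Without control repeat A it was called, at -1.10. Without control repeat B, the array with few probes above background, 4 of the 10 genes were called lower, with Psmb8 at -1.45 and Psmb9 at -0.94, where 4.74% of all genes were called lower.

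The Puro controls for Cluster 1 and for CDH1 carry the same empty vector, and they differed in the same genes. Psmb8, Psmb9, H2-K1, H2-D1 and Tapbp were lower in the control for Cluster 1 than in the control for CDH1 and none of the 10 was higher, where 5.15% of all genes were called lower and 4.86% higher. Psmb8 had -0.53 in the control for Cluster 1, against 0.77 and 0.87 in the control for CDH1, a difference of -1.35 (SE 0.0798, adjusted p = 1.75e-06). The second Psmb8 probe gave -1.22 (adjusted p = 2.74e-07 over all probes). Psmb9 differed by -0.87 (adjusted p = 0.000431), H2-K1 by -0.58 (adjusted p = 0.000753), H2-D1 by -0.52 (adjusted p = 0.00941) and Tapbp by -0.37 (adjusted p = 0.0329). The Tapbp call ended under 10 of 16 alternatives. Among them were any 1 of the 4 arrays left out (-0.42 to -0.32), marked spots kept, median centring and scaled spread. Without repeat B of the control for CDH1 the H2-D1 call ended too (-0.41), as it did without repeat A of the control for Cluster 1 (-0.47). With the sample channel alone the Psmb8 (-1.04, adjusted p = 0.0622) and Tapbp (-0.06) calls ended, H2-K1 was 0.15, H2-D1 0.0035 and B2m was called higher, at 1.10. Marked spots kept ended the Psmb9 call (-0.73, adjusted p = 0.161), and median centring that of H2-D1 (-0.39, adjusted p = 0.0758). The second Tapbp probe was not called (-0.33, adjusted p = 0.0603). The controls lay on different slides, so slide and control cannot be told apart.

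Each overexpression was then set against the other Puro control, a choice that crosses slides. Cluster 1 cells against the control for CDH1 had 1 of the 10 genes called, Psmb8, which was lower by 0.30 on the log2 scale (log2 fold change -0.30, adjusted p = 0.0146), where 3.83% of all genes were called lower. Psmb9 was 0.20 (adjusted p = 0.4), H2-K1 0.01 and H2-D1 0.03 there. In CDH1 cells against the control for Cluster 1, limma called 0 of the 10 genes, with 0 at an unadjusted p under 0.05, where 2.42% of all genes were called. Psmb8 was -0.15 (adjusted p = 0.466), Psmb9 -0.14 and H2-K1 -0.06 in that comparison. The Psmb8 means on the Cy5 arrays thus ran from 0.82 in the control for CDH1 through 0.52 in Cluster 1 cells and -0.53 in the control for Cluster 1 to -0.68 in CDH1 cells, and the last pair was not called. Against the mean of both Puro controls, an alternative chosen after these values were seen, 5 genes were higher in Cluster 1 cells, with Psmb8 at 0.38 and Psmb9 at 0.63, where 4.77% of all genes were called higher. In CDH1 cells 4 were lower, with Psmb8 at -0.82 and Psmb9 at -0.57, where 4.44% of all genes were called lower.

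**Figure D3:**
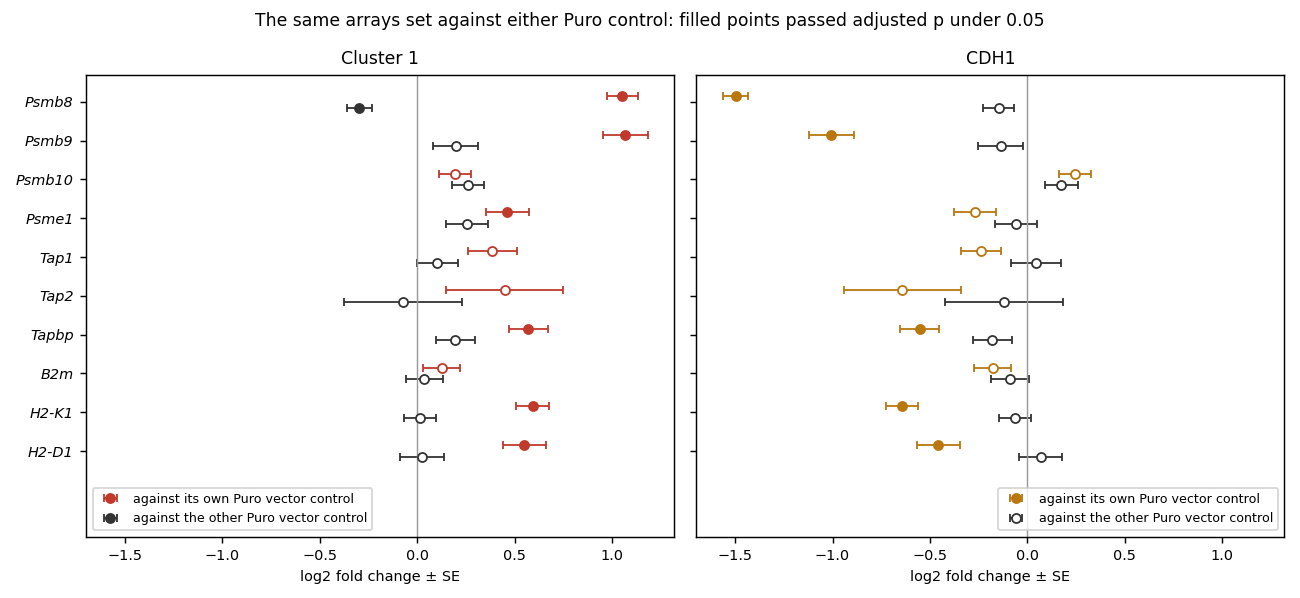
Log2 fold change with its SE for the 10 genes in Cluster 1 cells (left) and CDH1 cells (right), against their own Puro vector control (coloured) and against the other one (black), filled where the adjusted p was under 0.05. With the other control 1 point in Cluster 1 and no point in CDH1 is filled, and Psmb8 in Cluster 1 lies left of 0 at -0.30.

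Cluster 2 cells were compared with their Hygro control. Limma called 0 of the 10 genes, with 1 at an unadjusted p under 0.05, where 2.85% of all genes were called. Psmb8 had log2 ratios of -1.14 and -1.16 in Cluster 2 cells, against -1.14 and -1.11 in the Hygro control. Psmb9 had -2.10 and -1.95 in Cluster 2 cells, against -1.96 and -1.81 in the control. Both groups overlapped for each of these genes. H2-K1 (-0.03) and H2-D1 (0.03) also overlapped.

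Tapbp was the gene nearest a call in Cluster 2 cells, with -1.41 and -1.26 there, against -1.78 and -1.65 in the Hygro control. The difference was 0.38 (adjusted p = 0.0669). With the repeat letter as a block Tapbp was called (adjusted p = 0.046), and with the slide as a block too (adjusted p = 0.0128). Within slide 1 it differed by 0.38 and within slide 2 by 0.39.

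Clusters 1+2 cells, set against cells with both empty vectors, had 3 of the 10 genes higher and 1 lower, where 12.1% of all genes were called higher and 12.7% lower. The 4 calls stand against a background of 24.9% in either direction. Tapbp had log2 ratios of -0.87 and -0.80 in Clusters 1+2 cells, against -1.71 and -1.39 in the control, a rise of 0.72 (adjusted p = 0.000164), 1.65-fold. It was higher by 0.85 within slide 1 and 0.59 within slide 2. Its second probe rose by 0.40 (adjusted p = 0.00881, where 11.8% of probes were called higher).

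Psmb10 had -0.47 and -0.36 in Clusters 1+2 cells, against -0.77 and -0.79 in the control, a rise of 0.37 (adjusted p = 0.00541) that was not called without Clusters 1+2 repeat B (0.31), with scaled spread (0.31) or with the sample channel alone (0.29). Psmb8 had -0.59 and -0.55 in Clusters 1+2 cells, against -0.89 and -0.89 in the control, a rise of 0.31 (adjusted p = 0.00378). The Psmb8 arrays lay close together, but the call ended under 4 of the processing alternatives, at 0.27 to 0.41. Psmb9, the partner of Psmb8 in the immunoproteasome, had -1.995 and -1.70 in Clusters 1+2 cells, against -1.87 and -1.83 in the control, with a difference of 0.00 (adjusted p = 0.996).

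B2m fell in Clusters 1+2 cells, with -0.09 and -0.04 there, against 0.22 and 0.43 in the control. The difference was -0.39 (adjusted p = 0.00945), and the call ended without Clusters 1+2 repeat A (-0.36) or control repeat B (-0.28). It also ended with marked spots kept (adjusted p = 0.0738), scaled spread (adjusted p = 0.129) and the sample channel alone (adjusted p = 0.0538). Its 10-spot probe fell by 0.46 (adjusted p = 0.000417, where 11.7% of probes were called lower), and the third probe gave -0.10 and was not called. H2-D1 had 1.32 and 1.19 in Clusters 1+2 cells, against 0.88 and 1.08 in the control, and H2-K1 had 0.33 and 0.42 in Clusters 1+2 cells, against 0.09 and 0.30 in the control. Both genes lay above the control on both arrays, as was so for 29.4% of all genes, and were not called (0.27, adjusted p = 0.0993, and 0.18, adjusted p = 0.148). Of the other H2-K1 probes, 1 was called higher (0.36, adjusted p = 0.0436), where 11.8% of probes were, and 1 was not (0.24, adjusted p = 0.0609). With the mean over probes H2-K1 was called, at 0.26 (adjusted p = 0.0363). Without control repeat B the H2-K1 difference was called, at 0.29.

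**Figure D4:**
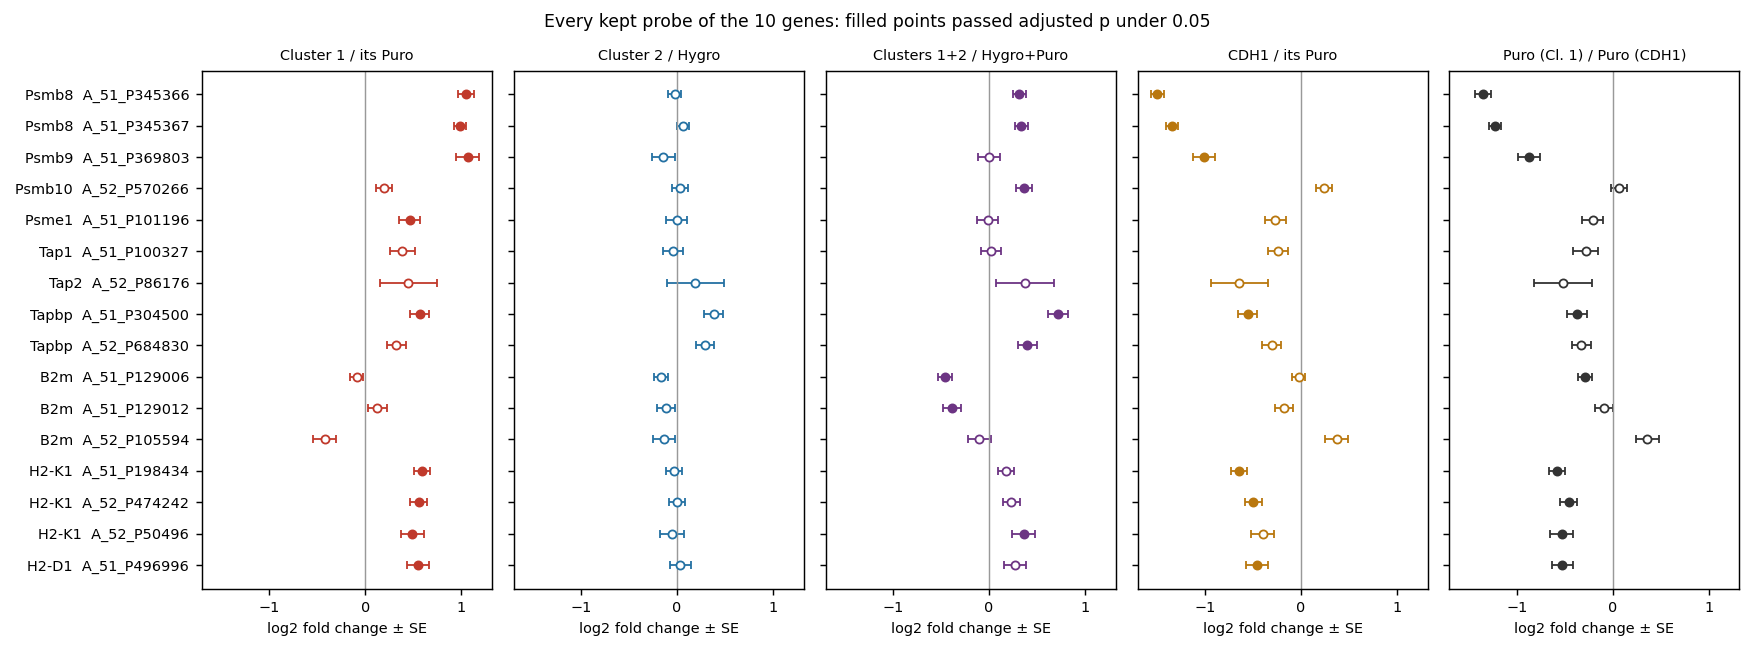
Log2 fold change with its SE for each of the 16 kept probes of the 10 genes, filled where the adjusted p over all probes was under 0.05. The pair of Psmb8 probes and the 3 H2-K1 probes keep 1 side of 0 in Cluster 1, in CDH1 and between the Puro controls. The 3 B2m probes differ in sign in each of these comparisons.

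The effects were also set against each other in the same fit. The Cluster 1 effect exceeded the Cluster 2 effect for Psmb8, Psmb9 and H2-K1, 3 of the 10 genes, where 1.73% of all genes had a larger Cluster 1 effect. The Clusters 1+2 effect was below the Cluster 1 effect for Psmb8, Psmb9, B2m and H2-K1, where 8.39% of all genes were. The B2m and H2-K1 calls of that difference each ended under 9 of 19 alternatives. Between Clusters 1+2 and Cluster 2 limma called 0 of the 10, with 3 at an unadjusted p under 0.05, where 6.24% of all genes differed. Of the 10 genes, 7 had a larger effect in Cluster 1 than in CDH1 cells, where 8.73% of all genes did. The Tap1 difference is among the 7, although its probe was above background on 1 of 2 arrays in CDH1 cells and 1 of 2 in their control, with 1 usable array in the control for Cluster 1. The Tap1 call ended under 6 alternatives, among them marked spots kept (adjusted p = 0.358) and scaled spread (adjusted p = 0.0536). Cluster 1 differs from Cluster 2 and from Clusters 1+2 in dye and slide, and every difference that takes in the Cluster 1 or CDH1 effect holds a Puro control of the pair that differed above.

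The remaining genes of the pathway were described by lists chosen with earlier results of these data known. Among 12 other class I genes, 7 rose in Cluster 1 cells and 6 fell in CDH1 cells, with list medians of 0.39 and -0.42. By comparison, 4.84% of all genes were called higher in Cluster 1 and 6.78% lower in CDH1 cells. Class I genes are close in sequence, so probes of the 12 may share signal and need not be separate readings, which was not tested. Against the other Puro control none of the 12 rose and 1, H2-M3 (-0.51), was lower in Cluster 1 cells, with a list median of 0.07. Of all genes, 3.83% were called lower in that comparison. In CDH1 cells against the other Puro control limma called 0 of the 12, where 2.42% of all genes were called. There 1 had an unadjusted p under 0.05, and the list median was -0.09. H2-T23, the ligand of the inhibitory receptor CD94/NKG2A known as Qa-1, had 0.27 and 0.22 in Cluster 1 cells, against -0.54 and -0.34 in the Puro control, and rose by 0.68. H2-T23 had -0.65 and -0.57 in CDH1 cells, against 0.07 and 0.12 in the Puro control, and fell by 0.71. The nonclassical genes H2-Q10 (0.60) and H2-T22 (0.58) also rose in Cluster 1 cells, and H2-Q10 (-0.59) and H2-Q2 (-0.53) were lower in CDH1 cells. Of the 12 genes, 7 were lower in the Puro control for Cluster 1 than in that for CDH1, where 5.15% of all genes were. Among them were H2-Q1 (-0.55) and H2-T23 (-0.53). With arrays centred on their median in place of loess, 1 of the 12 was called lower in CDH1 cells. That setting also called fewer of all genes lower there, with the counts given in the last section. In Cluster 2 and in Clusters 1+2 cells limma called 0 of the 12, with 2 and 4 at an unadjusted p under 0.05, where 2.85% and 24.9% of all genes were called.

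Genes of interferon signalling moved in both directions. In Cluster 1 cells 9 of 26 rose and 3 fell, and in CDH1 cells 3 rose and 10 fell, or 4 and 4 under median centring. With loess, 4.84% of all genes were called higher and 3.40% lower in Cluster 1 cells, and 7.67% higher and 6.78% lower in CDH1 cells. Median centring called more of all genes higher in CDH1 cells and fewer lower, with the counts given in the last section. Jak2, a kinase of the interferon-gamma receptor, had 0.70 and 0.66 in Cluster 1 cells, against -0.22 and -0.37 in the Puro control, a rise of 0.97. Irf9, the DNA-binding subunit of the ISGF3 complex, rose by 0.75 there. Socs1, a feedback inhibitor of JAK kinases, had 0.24 and 0.31 in Cluster 1 cells, against 1.00 and 0.93 in the control, and fell by 0.69. Against the other Puro control Jak2 was still higher in Cluster 1 cells, at 0.80, and Socs1 still lower, at -0.30, while Irf9 was not called, at 0.27.

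In CDH1 cells the falls were led by the feedback inhibitor Socs3 (-0.82), the signal transducer Stat3 (-0.63) and the interferon-gamma receptor chain Ifngr1 (-0.57). Against the other Puro control 2 of the 26 were lower and none higher in CDH1 cells, where 2.42% of all genes were called. They were Socs3 (-0.33) and Stat3 (-0.29), while Ifngr1 was -0.04 and not called. In Cluster 1 cells 4 of the 26 were higher and 6 lower against the other Puro control, where 907 of 18978 genes were called higher and 726 lower. Between the Puro controls 7 of the 26 genes were lower in the control for Cluster 1, with Irf1 at -0.78, and 1 was higher. Of all genes, 5.15% were called lower there and 4.86% higher. Irf1 is the transcription factor through which interferon-gamma raises class I genes. It had -0.40 and -0.38 in the control for Cluster 1, against 0.40 and 0.38 in the control for CDH1. In Clusters 1+2 cells 8 of the 26 rose and 5 fell, where 12.1% of all genes were called higher and 12.7% lower. Socs3 (-0.98), Irf8 (-0.84) and Socs1 (-0.74) changed most there. In Cluster 2 cells 2 rose, Jak2 (0.38) and Relb (0.37), and Socs3 fell by 0.39, where 2.85% of all genes were called.

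Tapbpl, a homologue of tapasin that edits the bound peptides, was called higher in all 3 microRNA comparisons, at 0.39 in Cluster 1, 0.42 in Cluster 2 and 0.76 in Clusters 1+2 cells. It had -0.06 and -0.12 in Cluster 1 cells, against -0.46 and -0.49 in the Puro control. In Cluster 2 cells it had -0.38 and -0.38, against -0.79 and -0.81 in the Hygro control. Unlike Psmb8, Psmb9, H2-K1, H2-D1 and Tapbp, Tapbpl hardly differed between the Puro controls (0.03), as was so for Psmb10 (0.07) and B2m (-0.09). Against the other Puro control it was 0.41 in Cluster 1 cells (adjusted p = 0.00131). In CDH1 cells Tapbpl was not called (0.01), while the chaperones Pdia3 (-0.43) and Canx (-0.25) fell.

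The standard proteasome was described by 3 lists. Of all genes, 12.1% were called higher and 12.7% lower in Clusters 1+2 cells, and 7.67% higher and 6.78% lower in CDH1 cells. In Cluster 1 cells 4.84% were called higher and 3.40% lower, and in Cluster 2 cells 2.85% in either direction. Between the Puro controls 4.86% were higher and 5.15% lower in the control for Cluster 1. Of the 3 constitutive catalytic subunits limma called 0 in Cluster 1 cells, with 1 at an unadjusted p under 0.05, and the list median was 0.09. Psmb5, the subunit that Psmb8 replaces, was called higher in Clusters 1+2 (0.19) and CDH1 cells (0.21). Among 11 further subunits of the 20S core limma called 0 in Cluster 1 cells (1 at an unadjusted p under 0.05), and in CDH1 cells Psma3 rose (0.25) and Psma6 fell (-0.38). In Clusters 1+2 cells Psma1 rose (0.24) and Psmb4 was lower (-0.20), and between the Puro controls Psma3 was higher in the control for Cluster 1 (0.45). Of 22 genes of the 19S regulator and proteasome assembly, Psmc2 (-0.28) fell in Cluster 1 cells and 3 rose in CDH1 cells, led by Psmd7 (0.43). In Clusters 1+2 cells Psmg1 (0.30) and Psmd7 (0.28) rose and Psme3 (-0.28) fell, and 3 were higher in the Puro control for Cluster 1 than in that for CDH1, led by Psmd7 (0.40). In Cluster 2 cells limma called 0 genes of these 3 lists, with 0 at an unadjusted p under 0.05. Of 8 class II presentation genes 1 was called in these comparisons, H2-DMa, lower in Clusters 1+2 cells (-0.66).

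**Figure D5:**
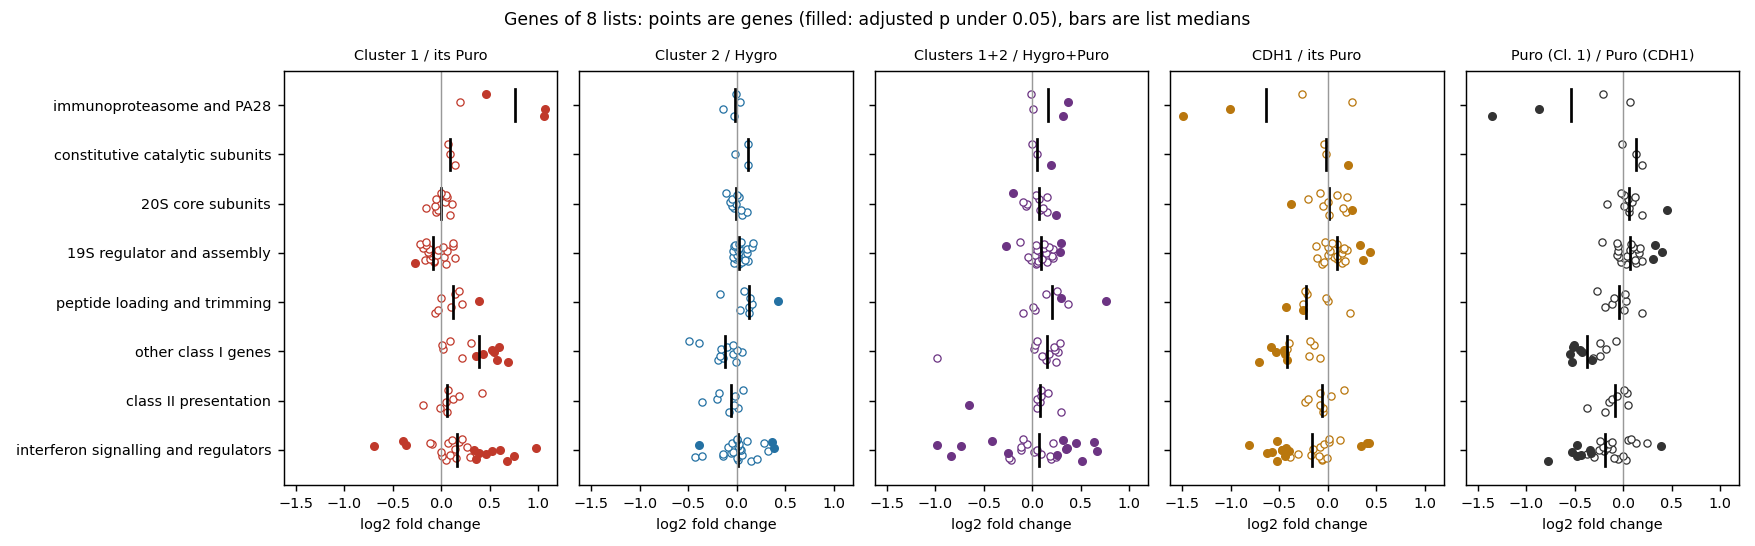
Log2 fold change of every measured gene in 8 lists of the pathway (points, filled where the adjusted p was under 0.05) in 5 comparisons, with list medians as bars. The other class I genes sit right of 0 in Cluster 1 and left of 0 in CDH1 and between the Puro controls, and the standard proteasome lists sit near 0.

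Markers of other cell types were read on the same arrays. Each of 13 leukocyte markers was above background on at least 1 array, 2 of them on all 16, and Ptprc, the general leukocyte marker CD45, on 6. Limma called 0 of the 13 in every overexpression comparison, with 2 at an unadjusted p under 0.05 in Cluster 1 and 1 in each of the other 3. Their mean log2 ratio ran from -0.63 to -0.56 in Cluster 1 cells, against -0.82 to -0.78 in the Puro control, and from -0.86 to -0.72 in CDH1 cells, against -0.62 to -0.61 in its control. It was thus higher where the class I genes were higher, and its part in the result was not tested. The 13 markers hold Cd74, H2-Aa and H2-Ab1, which are also class II presentation genes, so this mean is not separate from antigen presentation. Of 3 endothelial markers Cdh5 (-0.75) and Kdr (-0.53) were lower in the Puro control for Cluster 1 than in that for CDH1. Of all genes, 5.15% were called lower there. Cdh5 was above background on at most 4 of the 16 arrays and Kdr on at most 10, so these values lie near the floor. All 5 carcinoma epithelium markers rose in Cluster 1 cells, led by Krt7 (3.52), where 4.84% of all genes were called higher. The same 5 also rose in Cluster 2 cells, where 2.85% of all genes were called in either direction. They rose in Clusters 1+2 cells too, where 12.1% of all genes were called higher. In CDH1 cells Cdh1 rose and Krt8 (-0.55) fell. Of the mesenchymal markers 2 were measured. Fn1, fibronectin, fell by 1.13 in CDH1 cells (adjusted p = 1.35e-05) and was lower by 0.91 on the log2 scale in the Puro control for Cluster 1 than in that for CDH1 (log2 fold change -0.91). Vim, vimentin, fell by 0.87 in Clusters 1+2 cells. The part of these markers in the results above was not tested.

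Over the 16 arrays, with each gene centred within its dye, 8 of the 10 genes had a value on every array, and their mean served to find genes with a like pattern. Among the 8, H2-K1 (r = 0.958), H2-D1 (0.943) and Psmb9 (0.905) lay closest to that mean, which holds them, and Psmb10 (0.216) and B2m (0.193) farthest. Of 16169 genes searched, those most like the mean were the transcript ENSMUST00000087244 (r = 0.958), H2-Q5 (0.952), H2-T23 (0.945), Nosip (0.945) and the complement protease gene C1s1 (0.941). The points share slides and the Puro controls, and r is given as a description. Because C1s1 was picked by its likeness to that mean over these same arrays, its differences and their adjusted p are no separate evidence. C1s1 rose by 1.02 in Cluster 1 and 0.90 in Clusters 1+2 cells and fell by 0.92 in CDH1 cells. It was lower in the Puro control for Cluster 1 than in that for CDH1, with a difference of -0.72 (adjusted p = 0.00984).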

How the data were processed

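Per the file headers, each deposited array file gives a spot intensity for both channels, processed signals and log10 ratios, written by Agilent Feature Extraction 9.5.3.1 (design 014868, positions in mm7). The deposited series matrix holds a linear ratio per spot. It matched the processed sample over reference signal on all 16 arrays (largest absolute log10 difference 8.06e-08, column medians 0.903 to 1.17), so its scale and direction were settled this way, and the authors' reasons for its centring are unknown.

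From the deposited intensities, log2 ratios of sample over reference were made with limma 3.58.1 (R 4.3.3). Software-marked spots (335 to 1675 per array) were set missing, background was corrected by normexp (offset 50), and loess was fitted within arrays, leaving control spots out by weight 0. Spots of a probe were averaged. A probe was kept if some group had it well above background in its own channel on both arrays (27090 probes), and the brightest stood for each of 18993 genes. RefSeq gave names by accession for 22944 probes, by current symbol for 6664 and by synonym for 3108, and 8458 kept the name in the file. The limma model had 8 group means over 16 arrays, was fitted to all genes and to all kept probes, and was two-sided with Benjamini-Hochberg adjustment. It assumes a like spread in all groups. Where a marked spot left a single array, as for Psmb8 and Tap1 in the Puro control for Cluster 1, the fit used that array. The method was tested on simulated data.

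The members and lists were chosen with earlier results of these data known. The text names the 10 members with all probes, up to 3 called genes of largest change per list and comparison, and the 5 genes most like the members' mean. Cdh1 is given as a check of the labels. Values of list genes in comparisons where they were not called were added after their values were seen. Repeat letters were checked as pairs: deviations of repeat A correlated at 0.24 to 0.423 across genes between the Cy3 groups, which shared slides, and at -0.011 to 0.068 between Cy5 groups. The number of arrays limits the precision. Alternatives covered processed signals, the normexp offset, marked spots, centring, scaling, the sample channel alone, the probe filter, probe averaging, blocks for repeat and slide, the dye, the control and each array left out.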

Additional observations from a re-analysis of the deposited data

Results flagged for a closer look

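The values here are differences between effects, tested in the limma fit with Benjamini-Hochberg adjustment over all genes. The Cluster 1 effect was larger than the Cluster 2 effect for Psmb8 by 1.08 (SE 0.103, adjusted p = 0.000273), for Psmb9 by 1.21 (adjusted p = 0.00205) and for H2-K1 by 0.62 (adjusted p = 0.015). The Clusters 1+2 effect minus the Cluster 1 effect was -0.74 for Psmb8 (adjusted p = 0.000559), -1.07 for Psmb9 (adjusted p = 0.000789), -0.51 for B2m (adjusted p = 0.0213) and -0.41 for H2-K1 (adjusted p = 0.0315). For Cluster 1 against Cluster 2 the H2-K1 call ended under 6 of 19 alternatives. For Clusters 1+2 against Cluster 1 the B2m and H2-K1 calls each ended under 9 of 19. The third B2m probe gave 0.32 there and was not called, and the other H2-K1 probes, at -0.32 and -0.13, were not called. In both sets the compared effects come from arrays of opposite dye on different slides, and the part of dye and slide was not tested.

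The Cluster 1 effect minus the CDH1 effect was 2.55 for Psmb8 (adjusted p = 5.54e-08) and 2.07 for Psmb9 (adjusted p = 3.97e-06). It was 1.24 for H2-K1 (adjusted p = 1.67e-05), 1.12 for Tapbp (adjusted p = 0.000153) and 1.01 for H2-D1 (adjusted p = 0.000739). Psme1 differed by 0.73 (adjusted p = 0.00538) and Tap1 by 0.62 (adjusted p = 0.0214), the Tap1 value resting on a probe near background with 1 usable array in the control for Cluster 1. Each effect holds its own Puro control, and the controls themselves differed in 5 of these genes. The Tapbp call between the controls ended under 10 of 16 alternatives.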

How the results depend on the processing

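The repeats limit every call, with 2 arrays per group. Of 1610 values of the 10 genes under alternatives, 80 uncalled ones changed sign and stayed uncalled. With single arrays left out, genes called numbered 675 to 975 in Cluster 1 (1563 with all arrays), 231 to 809 in Cluster 2 (540), 3308 to 4159 in Clusters 1+2 (4714), 1533 to 2044 in CDH1 (2745) and 1082 to 1423 between the Puro controls (1901). Of the 10 genes 4 to 6, 0, 3 to 4, 4 to 6 and 3 to 4 were then called in that order. Differences of effects were called for 1 to 3 of the 10 (Cluster 1 minus Cluster 2), 0 to 1 (Clusters 1+2 minus Cluster 2), 2 to 5 (Clusters 1+2 minus Cluster 1) and 5 to 8 (Cluster 1 minus CDH1). With marked spots kept, genes called were 191 in Cluster 1, 78 in Cluster 2, 2646 in Clusters 1+2, 1247 in CDH1 and 527 between the controls, and of the 10 genes 1 was called in Cluster 1, 2 in Clusters 1+2, 3 between the controls, 1 for Cluster 1 minus Cluster 2 and 1 for Clusters 1+2 minus Cluster 1. Processed signals gave 188 genes in Cluster 2 and 2693 in Clusters 1+2, offset 10 gave 263 in Cluster 2, and arrays of the same dye 221. Median centring gave 2288 in Cluster 2 (2138 higher and 150 lower, against 338 and 202), and splits of 781 and 347 in Cluster 1 (against 918 and 645), 3165 and 660 in CDH1 (against 1457 and 1288) and 1060 and 553 between the controls (against 923 and 978). It moved the median of all genes by 0.135 in Cluster 2 and 0.106 in CDH1, and called 1 of the 10 genes in Cluster 2, 3 between the controls and 1 for Clusters 1+2 minus Cluster 2. Scaled spread gave 73 genes in Cluster 2 (65 higher and 8 lower) and 1873 in Clusters 1+2, with 1 of the 10. The sample channel alone gave 131 in Cluster 2 (100 higher and 31 lower), 1886 in Clusters 1+2 with 1 of the 10, 3 of the 10 in CDH1, 3135 genes between the controls with 2 of the 10, and 2 for Clusters 1+2 minus Cluster 1, as did the mean over probes. Between the controls it turned B2m to 1.10, H2-K1 to 0.15 and H2-D1 to 0.0035. The replicate block and the slide block each called 1 of the 10 in Cluster 2, Tapbp (adjusted p = 0.046 with the replicate block), and the replicate block changed no other call of the 10 genes in the 5 comparisons. The slide as a random block called 1 for Clusters 1+2 minus Cluster 2. The other Puro control gave 1 of the 10 in Cluster 1, with Psmb8 at -0.30, and 459 genes and 0 of the 10 in CDH1, with H2-D1 at 0.0691. The mean of both Puro controls, chosen after seeing the data, gave 1702 genes in CDH1. The cause of these shifts was not tested.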
